A study of Mus musculus with 18 samples.

Results

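The IL-4, IL-21, and IL-9 receptor chains, the transcription factors STAT6 and STAT3, and the SOCS feedback inhibitors were followed in B cells from spleen and Peyer's patches (PPs) of allergic mice by bulk RNA-Seq. The 9 genes *Il4ra*, *Il21r*, *Il9r*, *Il2rg*, *Stat6*, *Stat3*, *Socs1*, *Socs3*, and *Cish* were picked by symbol from the 55491 genes of the count table, and all 9 passed the filter on low counts in every comparison. Female BALB/cJ mice, 4–6 weeks old at the start, were all sensitized to ovalbumin (OVA) by i.p. injection, on days 0 and 14, of 20 μg of the protein in 1 mg alum. On days 28 and 42 they received i.v. 100 μL PBS, 100 μg soluble OVA, or 2.5 mg OVA NPs, which are polymer nanoparticles that carry the allergen inside, and cells were taken on day 44 at 10–12 weeks of age. The 6 groups were spleen and PP from mice given PBS, soluble OVA, or OVA NPs, with 3 libraries each, so every group came from allergic mice and no nonsensitized group was compared.

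B cells receive IL-4 through IL-4Rα paired with the common γ chain, which leads to phosphorylation of STAT6 and, with CD40 signals, to class switching to IgG1 and IgE. IL-21, made mainly by follicular helper T cells, uses its own receptor chain with the same γ chain and acts largely through STAT3 in germinal center and plasma cell differentiation. SOCS1, SOCS3, and CIS, the product of *Cish*, are induced by cytokine signals and restrain the JAK and STAT proteins that induced them. The measurements below are of mRNA, and phosphorylation was not measured.

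In the spleen, the 3 feedback genes rose with both forms of the allergen while the receptor and STAT mRNAs changed little, apart from a fall of *Il9r* and, with soluble OVA, of *Stat6*. In PPs, soluble OVA was followed by lower *Il4ra*, *Il9r*, *Il2rg*, *Stat6*, and *Socs3*, and OVA NPs by no change that passed the test. A differentially expressed gene (DEG) had a log2 fold change beyond 0.25 in either direction together with an adjusted p below 0.05 in the quasi-likelihood test of edgeR over all genes that passed the filter. Levels are CPM, the counts of a gene relative to the library's total, with TMM scaling over the 18 libraries, and are given as mean ± SD (n = 3).

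Libraries held 14177253 to 30052297 counts, so that 3 counts stood for 0.0998 to 0.212 CPM, a limit that covers counting error only. B cells were obtained by negative magnetic selection. The 6 genes of a B cell marker list included *Cd79a*, *Cd79b*, *Ms4a1*, and *Pax5*. They summed to 7360–8790 CPM in spleen and 5430–6820 CPM in PP. Of these 6, 5 were DEGs lower in PP than in spleen at each treatment, and 2 (*Cd22* and *Cd79a*) fell with soluble OVA in PP. Over all genes tested, 20.1%, 24.3%, and 15.1% were DEGs lower in PP with PBS, soluble OVA, and OVA NPs, and 13.9% fell with soluble OVA in PP. The part of the B cell genes in the levels of the 9 genes was not tested. Genes of other cell types differed between tissues: the 7 T cell genes summed to 2.08–4.79 CPM in spleen and 7.32–39.8 CPM in PP, and the 4 epithelial genes to 6.45–9.34 CPM in spleen, with *Krt20* at 0, and 142–663 CPM in PP. Among the 7 myeloid genes, *S100a8* was at 0 in PP with PBS and with soluble OVA. PPs were digested with collagenase IV at 2 mg/mL for 30 minutes at 37°C, whereas spleens were dissociated mechanically and treated with ACK lysis buffer, so tissue and preparation cannot be told apart. In such bulk samples, fewer cells of a type and less RNA per cell cannot be told apart either. The p-values set each difference between groups against the spread of libraries within the groups fitted, an estimate that edgeR moderates across genes.

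Promoter sequence is shown for the 2 feedback genes whose 250 bases before the RefSeq start hold one of the searched motifs. The windows come from RefSeq on GRCm38.p6 and were found for 9 of 9 genes, and 3 motifs were searched on both strands: TTCNNNGAA, the palindrome that STAT3 and other STAT dimers favor, TTCNNNNGAA, the wider spacing that STAT6 favors, and GAAANNGAAA, the interferon response type of repeat, which was added after the windows had been seen. The *Socs1* window is chr16:10785537-10785786 and the *Socs3* window chr11:117969367-117969616, both on the minus strand and written 5′ to 3′ in gene direction, with motif matches in capitals.
Socs1: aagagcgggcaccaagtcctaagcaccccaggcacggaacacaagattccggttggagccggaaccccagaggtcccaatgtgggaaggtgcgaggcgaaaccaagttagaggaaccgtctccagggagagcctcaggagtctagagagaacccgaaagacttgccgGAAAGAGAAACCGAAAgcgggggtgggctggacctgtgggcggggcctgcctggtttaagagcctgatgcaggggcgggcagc
Socs3: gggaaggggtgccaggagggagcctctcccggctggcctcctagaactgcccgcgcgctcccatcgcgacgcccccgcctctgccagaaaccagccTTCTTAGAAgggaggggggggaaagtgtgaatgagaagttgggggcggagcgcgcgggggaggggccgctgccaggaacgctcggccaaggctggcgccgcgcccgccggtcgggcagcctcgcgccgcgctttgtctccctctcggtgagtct

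*Socs3* held 1 match to TTCNNNGAA, TTCTTAGAA, 154 bases before the start. *Socs1* held 2 overlapping matches to GAAANNGAAA, GAAAGAGAAA and GAAACCGAAA, 83 and 77 bases before its start. The windows of *Cish* and of the 6 receptor and STAT genes held no match, which says only that these letters are not in those 250 bases. The *Cish* window lies wholly and the *Il4ra* window partly inside the gene as GENCODE annotates it, so they are not upstream of those gene starts. Over 32817 promoter windows of the same length, 7.01% held TTCNNNGAA, 5.85% TTCNNNNGAA, and 2.97% GAAANNGAAA. The *Socs3* window was 71.6% G and C and the *Socs1* window 61.2%, against a median of 52.4% over all windows. The *Socs3* window lies inside the longer GENCODE model of the gene, where part of it is an exon of an alternative transcript without a coding sequence. A match is a description of sequence and not evidence of binding.

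Levels were next divided by the length covered by all annotated exons of a gene. That length can exceed that of the expressed mRNA, so ranks between genes are approximate. On this scale the γ chain was the most abundant of the 9 mRNAs in PBS mice. It was at 150 ± 5.15 CPM per kb in spleen and 113 ± 10.1 in PP. *Stat6* followed in spleen at 56.6 ± 1.78 CPM per kb, and *Il4ra* at 34.7 ± 2.02 and *Il21r* at 33.4 ± 3.46 lay within each other's spread. In PP, *Il21r* at 69.8 ± 1.05 CPM per kb stood above *Stat6* at 49.1 ± 4.88 and *Il4ra* at 38.2 ± 1.63. The feedback genes were low in both tissues: *Socs3* was at 3.24 ± 0.567 CPM per kb in spleen and 15.0 ± 1.98 in PP, *Socs1* at 1.74 ± 0.351 and 3.51 ± 0.468, and *Cish* at 0.245 ± 0.0294 and 1.10 ± 0.102.

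**Figure D1:**
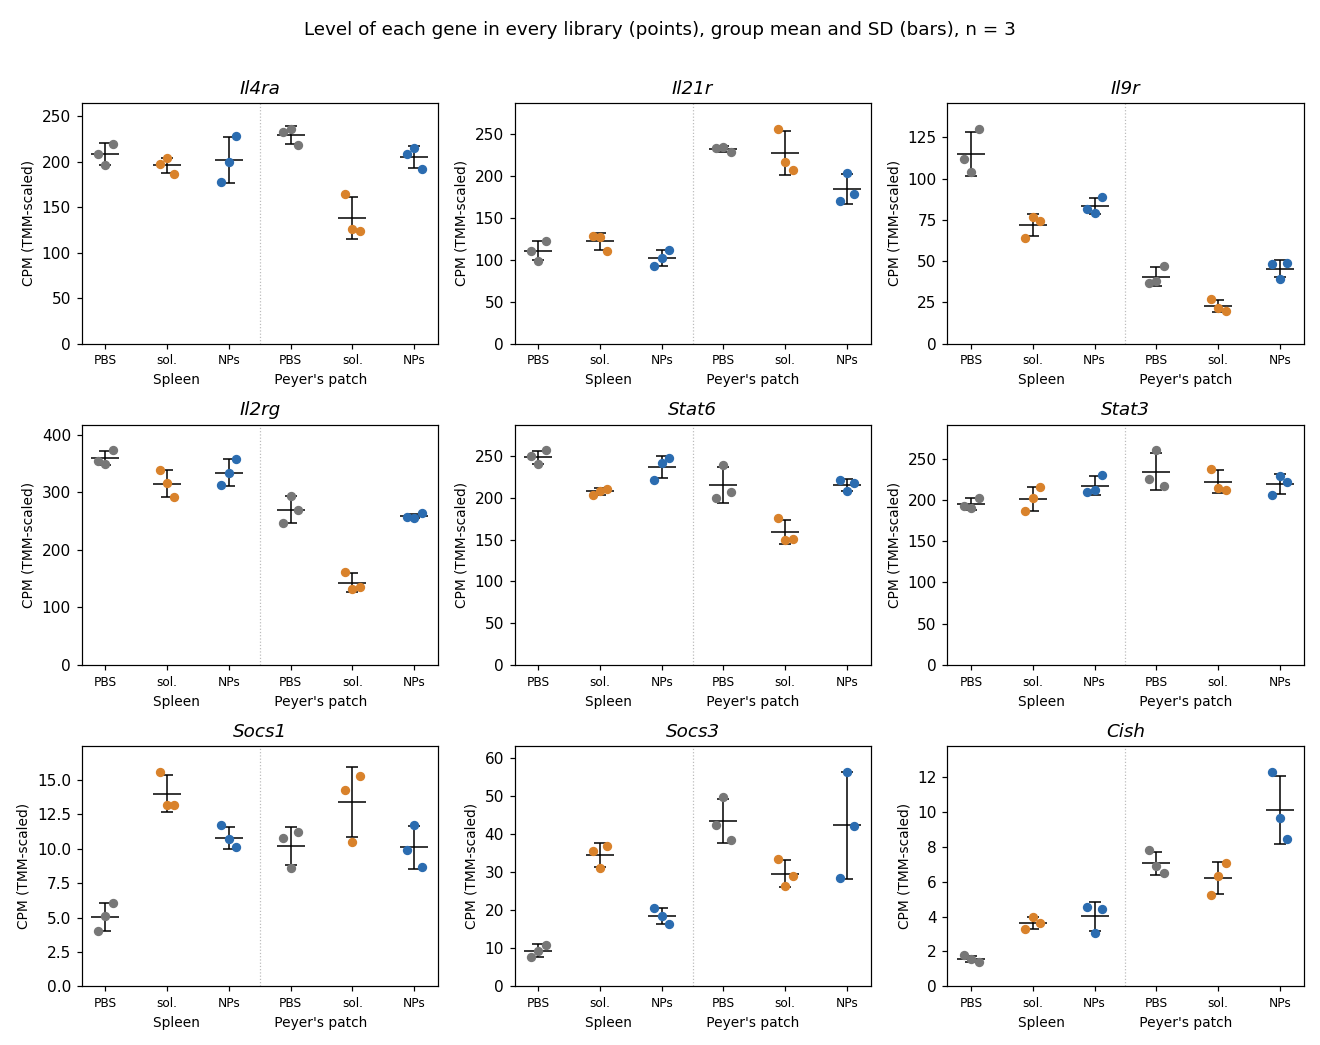
Level of each of the 9 genes in CPM (vertical axis, from 0) in every library of the 6 groups, with the group mean and SD (n = 3). The spleen PBS libraries are the lowest of all 18 for *Socs1*, *Socs3*, and *Cish*, and the PP soluble OVA libraries are the lowest for *Il4ra*, *Il9r*, *Il2rg*, and *Stat6*.

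*Il4ra* (ENSMUSG00000030748, chr7:125552120-125579474 of GRCm38, plus strand) encodes the chain that binds IL-4 and is shared with the IL-13 receptor. In the spleen it measured 209, 196, and 220 CPM in the 3 PBS libraries, 198, 204, and 187 CPM with soluble OVA, and 178, 200, and 228 CPM with OVA NPs. These 3 groups overlapped, and neither treatment differed from PBS (log2 fold change −0.09 ± 0.06 SE for soluble OVA, edgeR adjusted p = 0.39, and −0.04 ± 0.08 for OVA NPs, adjusted p = 0.784). In PP it measured 233, 236, and 218 CPM with PBS, 164, 126, and 124 CPM with soluble OVA, and 209, 215, and 192 CPM with OVA NPs. Each PP soluble OVA library lay below each library of the other PP groups. Against PBS, *Il4ra* fell by 0.74 on the log2 scale with soluble OVA (SE 0.11, edgeR adjusted p = 0.00104), a level 1.67-fold lower, and with OVA NPs it was 1.5-fold higher than with soluble OVA (log2 fold change 0.58 ± 0.13, adjusted p = 0.0108). OVA NPs against PBS gave −0.14 ± 0.07, which did not pass the test (adjusted p = 0.547). An annotated antisense gene overlaps *Il4ra*, and the sources used here do not state whether reads were counted by strand.

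*Il21r* (ENSMUSG00000030745, chr7:125603429-125633570, plus strand), the IL-21 binding chain, lies next to *Il4ra* on the same strand but had another pattern. In the spleen it measured 111, 98.9, and 122 CPM with PBS, 128, 127, and 110 CPM with soluble OVA, and 92.8, 102, and 112 CPM with OVA NPs. In PP it measured 233, 235, and 228 CPM with PBS, 256, 217, and 207 CPM with soluble OVA, and 170, 204, and 178 CPM with OVA NPs. All 9 PP libraries lay above all 9 spleen libraries, and in PBS mice *Il21r* was 2.12-fold higher in PP (log2 fold change 1.08 ± 0.08, edgeR adjusted p = 3.07e-06). The 3 PP OVA NP libraries lay below the PP libraries of both other groups, with −0.32 ± 0.08 against PBS, which did not pass the edgeR test (adjusted p = 0.261) and passed that of DESeq2 (−0.32, adjusted p = 0.027). Against soluble OVA the difference was −0.29 ± 0.11 (edgeR adjusted p = 0.0731), and it passed in 4 of 7 other settings (adjusted p between 0.019 and 0.0319) and without OVA NP replicate 2 (adjusted p = 0.0275).

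*Il9r* (ENSMUSG00000020279, chr11:32187541-32200279, minus strand), the receptor chain for the Th2 cytokine IL-9, fell in the spleen with both treatments. It measured 112, 104, and 130 CPM with PBS, 64.1, 76.8, and 74.5 CPM with soluble OVA, and 81.7, 79.4, and 88.8 CPM with OVA NPs. The 3 spleen groups did not overlap. Against PBS, *Il9r* was 1.61-fold lower with soluble OVA (log2 fold change −0.69 ± 0.09, edgeR adjusted p = 0.00032) and 1.38-fold lower with OVA NPs (−0.46 ± 0.08, adjusted p = 0.00145), and the treatments did not differ by the test (0.22 ± 0.08, adjusted p = 0.446). In PP the level was 36.6, 38.1, and 47.2 CPM with PBS, 27.0, 21.3, and 19.8 CPM with soluble OVA, and 48.1, 39.4, and 48.8 CPM with OVA NPs. Soluble OVA lay below the other PP groups without overlap, 1.81-fold below PBS (−0.85 ± 0.14, edgeR adjusted p = 0.00245), and OVA NPs were 2.01-fold above soluble OVA (1.01 ± 0.15, adjusted p = 0.00163). OVA NPs and PBS overlapped in PP (0.17 ± 0.13, edgeR adjusted p = 0.675).

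*Il2rg* (ENSMUSG00000031304, chrX:101264378-101268255, minus strand) encodes the common γ chain, used by the IL-4, IL-9, and IL-21 receptors alike. In the spleen it measured 355, 349, and 373 CPM with PBS, 339, 316, and 292 CPM with soluble OVA, and 312, 333, and 358 CPM with OVA NPs, and no treatment difference passed the test (edgeR adjusted p = 0.0665 for soluble OVA against PBS, log2 fold change −0.18 ± 0.07). In PP it measured 246, 294, and 270 CPM with PBS, 162, 132, and 136 CPM with soluble OVA, and 257, 256, and 264 CPM with OVA NPs. The soluble OVA libraries were far below the rest, 1.90-fold below PBS (−0.93 ± 0.10, edgeR adjusted p = 0.000206), and the OVA NP libraries lay within the range of the PBS libraries. OVA NPs stood 1.82-fold above soluble OVA in PP (0.86 ± 0.10, edgeR adjusted p = 0.000565). The annotation places another protein-coding gene model on the same strand over *Il2rg*, so reads could be divided between them.

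*Stat6* (ENSMUSG00000002147, chr10:127642986-127660957, plus strand), which carries the IL-4 signal to the nucleus, measured 250, 241, and 257 CPM with PBS in the spleen, 203, 208, and 211 CPM with soluble OVA, and 222, 242, and 248 CPM with OVA NPs. With soluble OVA it was 1.20-fold lower than with PBS, without overlap (log2 fold change −0.26 ± 0.06, edgeR adjusted p = 0.006), a size close to the cutoff, and without PBS replicate 3 or soluble OVA replicate 1 it fell under the cutoff at −0.24. With OVA NPs it overlapped PBS (−0.07 ± 0.05, edgeR adjusted p = 0.443). In PP, *Stat6* measured 200, 240, and 207 CPM with PBS, 176, 150, and 151 CPM with soluble OVA, and 222, 208, and 218 CPM with OVA NPs. Soluble OVA was again the lowest group, 1.37-fold below PBS (−0.45 ± 0.09, edgeR adjusted p = 0.00596), a call lost without soluble OVA replicate 2 (adjusted p = 0.0612) or 3 (adjusted p = 0.0658). OVA NPs were 1.37-fold above soluble OVA in PP (0.45 ± 0.09, edgeR adjusted p = 0.00671). *Nab2* lies across the end of *Stat6* on the other strand.

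*Stat3* (ENSMUSG00000004040, chr11:100885098-100939540, minus strand), the main STAT of the IL-21 receptor, differed little between groups. Group means ran from 195 ± 6.89 CPM in the spleen with PBS to 234 ± 22.5 CPM in PP with PBS. In the spleen, the OVA NP libraries at 210, 212, and 230 CPM lay above the PBS libraries at 192, 190, and 202 CPM, but the log2 fold change of 0.17 ± 0.05 was under the cutoff (edgeR adjusted p = 0.0446). Soluble OVA gave 187, 202, and 216 CPM in the spleen and overlapped both. The PP treatments also overlapped one another, at 225, 260, and 217 CPM with PBS, 238, 215, and 212 CPM with soluble OVA, and 206, 229, and 222 CPM with OVA NPs. *Stat5a* overlaps *Stat3* on the opposite strand.

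*Socs1* (ENSMUSG00000038037, chr16:10782240-10785536, minus strand), whose product inhibits JAK kinases, rose in the spleen. It measured 4.03, 5.13, and 6.06 CPM with PBS, 15.6, 13.2, and 13.2 CPM with soluble OVA, and 11.7, 10.7, and 10.1 CPM with OVA NPs. The 3 spleen groups did not overlap, and *Socs1* was 2.77-fold higher with soluble OVA than with PBS (log2 fold change 1.47 ± 0.15, edgeR adjusted p = 1.44e-05) and 2.14-fold higher with OVA NPs (1.10 ± 0.16, adjusted p = 0.000284). The treatments differed from each other by −0.37 ± 0.12, which did not pass the test (edgeR adjusted p = 0.376). In PP it measured 10.8, 8.64, and 11.2 CPM with PBS, 14.3, 10.5, and 15.3 CPM with soluble OVA, and 9.93, 11.7, and 8.65 CPM with OVA NPs. These groups overlapped, with 0.37 ± 0.18 for soluble OVA against PBS (edgeR adjusted p = 0.162) and −0.01 ± 0.18 for OVA NPs against PBS (adjusted p = 0.995).

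*Socs3* (ENSMUSG00000053113, chr11:117966079-117970047, minus strand), encodes a feedback inhibitor best known for gp130 cytokines that signal through STAT3. In the spleen it measured 7.71, 9.40, and 11.0 CPM with PBS, 35.7, 31.1, and 37.0 CPM with soluble OVA, and 20.7, 18.6, and 16.3 CPM with OVA NPs. The groups stood apart in the order PBS, OVA NPs, soluble OVA. Against PBS, *Socs3* was 3.70-fold higher with soluble OVA (log2 fold change 1.89 ± 0.12, edgeR adjusted p = 1.99e-07) and 1.98-fold higher with OVA NPs (0.99 ± 0.14, adjusted p = 0.00022). OVA NPs were 1.87-fold below soluble OVA (−0.90 ± 0.11, edgeR adjusted p = 0.00419), a call that was lost without soluble OVA replicate 1 (adjusted p = 0.0525), without OVA NP replicate 2 (adjusted p = 0.144), and with all 18 libraries in 1 fit (adjusted p = 0.187). In PP the direction with soluble OVA was the opposite. *Socs3* measured 42.3, 49.7, and 38.5 CPM with PBS, 33.5, 26.5, and 28.9 CPM with soluble OVA, and 28.4, 56.4, and 42.1 CPM with OVA NPs. Soluble OVA was 1.48-fold below PBS without overlap (−0.56 ± 0.12, edgeR adjusted p = 0.00672), a call lost without soluble OVA replicate 3 (adjusted p = 0.0529), and the OVA NP libraries spread across both other groups (−0.03 ± 0.23 against PBS, adjusted p = 0.974).

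*Cish* (ENSMUSG00000032578, chr9:107296026-107302784, plus strand) is a classical STAT5 target. Its mean was the lowest of the 9 genes in every group but PP with OVA NPs, where it and *Socs1* were at 10.1 CPM. In the spleen *Cish* measured 1.78, 1.55, and 1.40 CPM with PBS, 3.27, 3.98, and 3.65 CPM with soluble OVA, and 4.53, 3.07, and 4.43 CPM with OVA NPs. Both treatments lay above PBS, 2.3-fold with soluble OVA (log2 fold change 1.20 ± 0.24, edgeR adjusted p = 0.0029) and 2.56-fold with OVA NPs (1.35 ± 0.25, adjusted p = 0.00145), and the treatments overlapped each other (0.16 ± 0.22, adjusted p = 0.863). In PP it measured 7.79, 6.88, and 6.51 CPM with PBS, 5.25, 6.31, and 7.06 CPM with soluble OVA, and 12.3, 9.64, and 8.47 CPM with OVA NPs. The OVA NP libraries were the highest 3 of all 18. They were 1.65-fold above soluble OVA (0.73 ± 0.20, edgeR adjusted p = 0.0251), a call lost without soluble OVA replicate 1 or 2 or OVA NP replicate 1 or 2 (adjusted p between 0.0639 and 0.119), and against PBS the difference of 0.54 ± 0.20 did not pass (adjusted p = 0.441). A pseudogene and an antisense gene overlap *Cish* on the other strand.

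**Figure D2:**
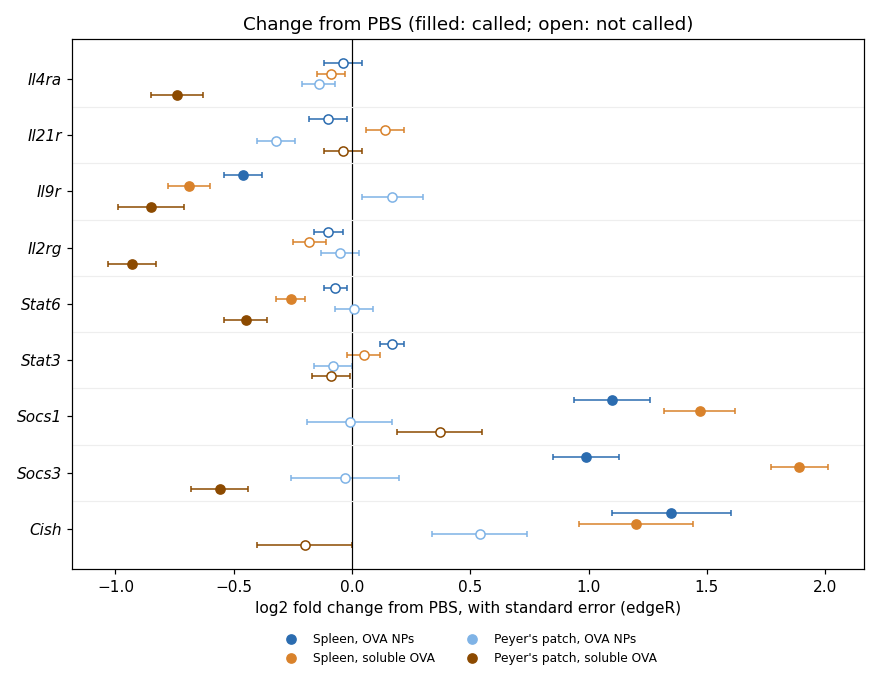
Log2 fold change from PBS with its standard error (horizontal axis, edgeR) for each gene, in spleen and PP, with OVA NPs and with soluble OVA. Filled points are DEGs; *Socs1*, *Socs3*, and *Cish* lie right of 0 in spleen with both treatments, and *Il4ra*, *Il9r*, *Il2rg*, *Stat6*, and *Socs3* lie left of 0 in PP with soluble OVA.

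Counted over the 9 genes, OVA NPs against PBS in the spleen gave 4 DEGs, 3 higher and 1 lower, where 15.0% of the 14200 genes tested were DEGs (8.60% higher and 6.35% lower). Soluble OVA against PBS in the spleen gave 5 DEGs, 3 higher and 2 lower, where 17.2% of 14128 genes were DEGs (10.5% higher and 6.72% lower). The median log2 fold change of the 9 genes was −0.04 with OVA NPs and 0.05 with soluble OVA, beside 0.000619 and −0.00822 over all genes tested. Directly compared, OVA NPs and soluble OVA differed in the spleen for 1 of the 9 genes, *Socs3*, where 0.238% of 13840 genes were DEGs. The OVA NP and soluble OVA contrasts share the PBS libraries of their tissue, so their values are not independent of each other. The 7 germinal center B cell genes summed to 103–167 CPM with PBS in the spleen, 338–486 CPM with soluble OVA, and 336–361 CPM with OVA NPs, and the 4 cycling cell genes to 229–287, 709–834, and 635–882 CPM. All 7 germinal center genes rose with soluble OVA and 6 of 7 with OVA NPs, and 4 of 4 cycling genes with each, and their part in the higher feedback genes was not tested. The myeloid genes summed to 110–288 CPM with PBS, 52.6–125 CPM with soluble OVA, and 61.4–241 CPM with OVA NPs in the spleen, where 2 of 6 tested (*Itgam* and *Adgre1*) fell with soluble OVA and 0 with OVA NPs, and their part was not tested either. The 8 immediate-early genes summed to 316–327 CPM with PBS, 289–348 CPM with soluble OVA, and 288–330 CPM with OVA NPs in the spleen, and these ranges overlapped. Of 7 tested, however, 2 rose and 2 fell with OVA NPs, and 1 (*Fos*) rose and 0 fell with soluble OVA. Their part was not tested.

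In PP, soluble OVA against PBS gave 5 DEGs among the 9 genes, all lower, where 27.4% of 15792 genes were DEGs (13.5% higher and 13.9% lower), and OVA NPs against soluble OVA gave 5, all higher, where 30.1% of 15599 genes were DEGs (13.8% higher and 16.3% lower). The median log2 fold change of the 9 genes was −0.45 and 0.52 in these contrasts, beside −0.0175 and 0.0253 over all genes. For OVA NPs against PBS in PP, 0 of the 9 genes and 0% of 15798 genes were DEGs by edgeR. In that contrast 1573 genes had an unadjusted p under 0.05, and DESeq2 called 149 genes, of which 1 was *Il21r*. In PP the germinal center genes summed to 994–1200 CPM with PBS, 1820–1880 CPM with soluble OVA, and 753–1170 CPM with OVA NPs, and the cycling genes to 1030–1300, 2510–2780, and 856–1270 CPM. The immediate-early genes summed to 1880–3250 CPM with PBS, 876–1230 CPM with soluble OVA, and 1270–2360 CPM with OVA NPs, and the T cell genes to 12.4–20.1, 7.32–13.7, and 24.9–39.8 CPM. Mitochondrial transcripts took 5.41–7.67%, 4.97–6.02%, and 9.08–9.80% of the counts in the same order. With soluble OVA against PBS, 6 of 7 germinal center and 4 of 4 cycling genes rose and 6 of 8 immediate-early genes fell, and with OVA NPs against soluble OVA, 5 of 7 T cell genes and 3 of 5 tested myeloid genes (*Cd14*, *Lyz2*, *Csf1r*) rose and 6 of 7 germinal center and 4 of 4 cycling genes fell. The myeloid genes summed to 113–152 CPM with PBS, 88.6–104 CPM with soluble OVA, and 135–233 CPM with OVA NPs. The part of these lists in the lower receptor and STAT levels after soluble OVA, and in the 5 higher levels with OVA NPs against soluble OVA, was not tested.

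**Figure D3:**
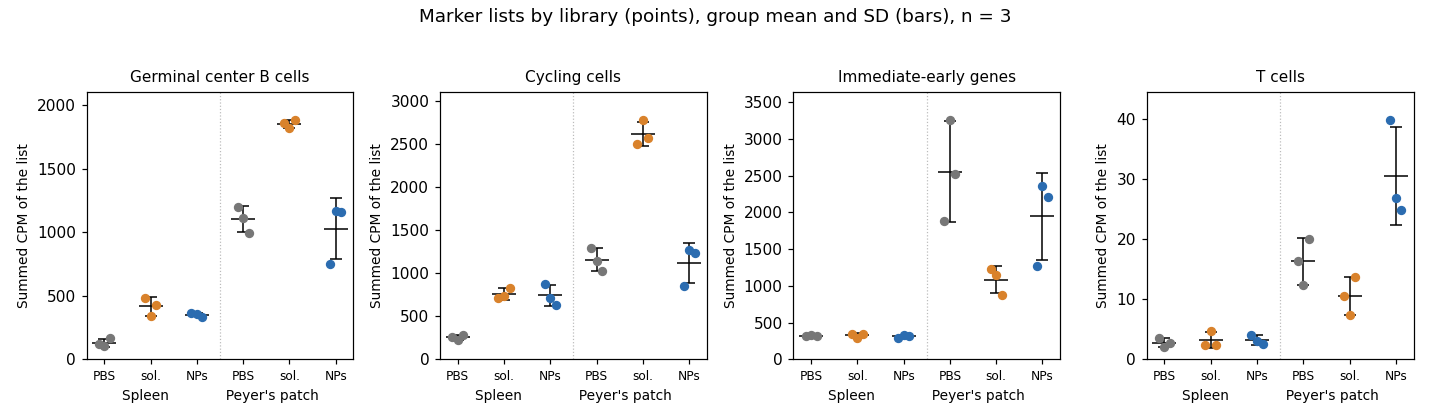
Summed CPM (vertical axis, from 0) of 4 marker lists in every library of the 6 groups, with the group mean and SD (n = 3). In PP, the soluble OVA libraries are the highest for germinal center (1820–1880 CPM) and cycling genes (2510–2780 CPM) and the lowest PP libraries for immediate-early genes (876–1230 CPM).

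Between tissues, PP B cells of PBS mice had more *Il21r* and more of all 3 feedback genes than spleen B cells, and less *Il9r* and *Il2rg*. Of the 9 genes, 7 were DEGs between PP and spleen in PBS mice, where 45.6% of 15463 genes were DEGs. The differences in PBS mice were 4.69-fold for *Socs3* (log2 fold change 2.23 ± 0.14, edgeR adjusted p = 1.66e-06), 4.53-fold for *Cish* (2.18 ± 0.22, adjusted p = 4.08e-05), and 2.05-fold for *Socs1* (1.03 ± 0.20, adjusted p = 0.00184). *Il9r* was 2.80-fold lower in PP (−1.49 ± 0.12, edgeR adjusted p = 2.64e-05) and *Il2rg* 1.31-fold lower (−0.39 ± 0.07, adjusted p = 0.000837). *Stat3* was 1.22-fold higher in PP (0.28 ± 0.07, edgeR adjusted p = 0.0052), which fell under the cutoff without PP PBS replicate 2 (0.21) and without a count filter (0.25), and *Il4ra* and *Stat6* were not DEGs (0.15 ± 0.06 and −0.19 ± 0.07). In PBS mice the immediate-early genes summed to 316–327 CPM in spleen and 1880–3250 CPM in PP, and the germinal center genes to 103–167 and 994–1200 CPM, and their part in the higher feedback genes was not tested.

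In soluble OVA mice, 6 of the 9 genes were DEGs between the tissues, where 51.1% of 15415 genes were, and *Socs1* and *Socs3* were not among them (−0.07 ± 0.16, edgeR adjusted p = 0.747, and −0.22 ± 0.11, adjusted p = 0.107). *Il2rg* was then 2.20-fold lower in PP (−1.14 ± 0.09, edgeR adjusted p = 9.05e-06), *Il9r* 3.16-fold lower (−1.66 ± 0.13, adjusted p = 7.38e-06), *Il4ra* 1.42-fold lower (−0.51 ± 0.11, adjusted p = 0.00342), and *Stat6* 1.31-fold lower (−0.39 ± 0.08, adjusted p = 0.00228). *Il21r* stayed 1.86-fold higher in PP (0.90 ± 0.10, edgeR adjusted p = 5.27e-05), and *Cish* was 1.71-fold higher (0.77 ± 0.22, adjusted p = 0.0135), a call lost without PP soluble OVA replicate 3 (adjusted p = 0.0512). In OVA NP mice, 5 of the 9 were DEGs, where 37.1% of 15466 genes were. These were *Il21r* (0.89 ± 0.09), *Socs3* (1.24 ± 0.24), and *Cish* (1.39 ± 0.22), higher in PP, and *Il9r* (−0.82 ± 0.09) and *Il2rg* (−0.32 ± 0.06), lower in PP, with edgeR adjusted p between 5.58e-05 and 0.00685.

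**Figure D4:**
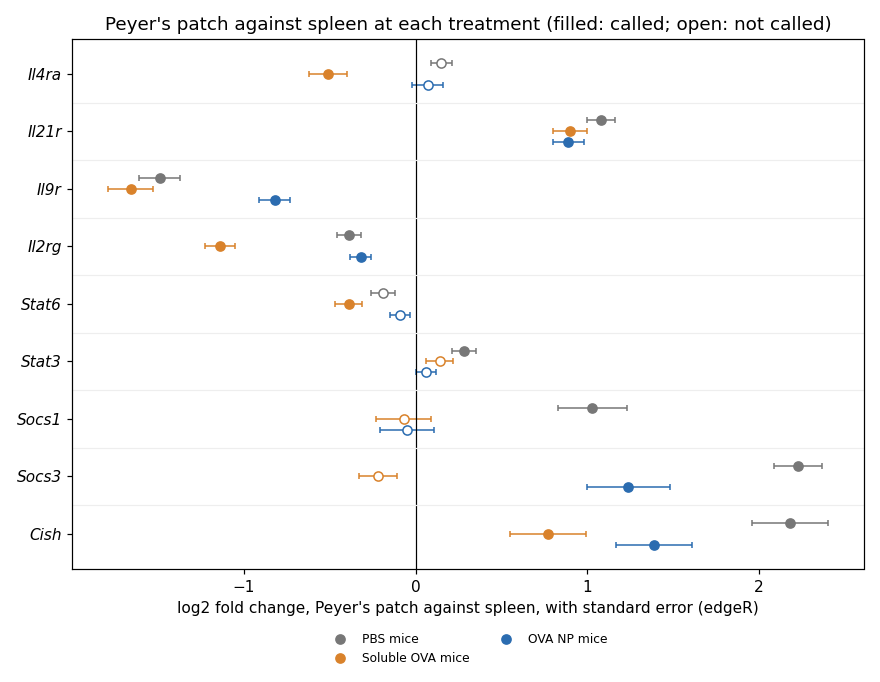
Log2 fold change of PP against spleen with its standard error (horizontal axis, edgeR) for each gene in PBS, soluble OVA, and OVA NP mice; filled points are DEGs. *Il21r* lies right and *Il9r* and *Il2rg* left of 0 in all 3, and *Socs3* moves from 2.23 in PBS mice to −0.22 in soluble OVA mice.

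Whether a treatment effect differed between the tissues was tested directly with an interaction term, the PP effect minus the spleen effect, at an adjusted p below 0.05. For soluble OVA, 5 of the 9 genes passed, where 6.84% of 16541 genes did, all with a lower effect in PP. They were *Socs3* (−2.44 ± 0.19, edgeR adjusted p = 4e-06), *Cish* (−1.40 ± 0.29, adjusted p = 0.00863), *Socs1* (−1.09 ± 0.25, adjusted p = 0.0175), *Il2rg* (−0.74 ± 0.12, adjusted p = 0.00242), and *Il4ra* (−0.65 ± 0.13, adjusted p = 0.00857). The *Socs1* call was lost without spleen PBS replicate 1 (edgeR adjusted p = 0.0565). *Il9r*, lower with soluble OVA in both tissues, had an interaction of −0.16 ± 0.18 (edgeR adjusted p = 0.696). For OVA NPs, 2 of the 9 passed, where 4.42% of 16619 genes did: *Socs1* (−1.09 ± 0.25, edgeR adjusted p = 0.0244) and *Il9r* (0.65 ± 0.16, adjusted p = 0.0392). Both calls were lost when single libraries were left out, *Il9r* without any 1 of 8 of the 12 libraries (adjusted p up to 0.104) and *Socs1* without any 1 of 6 (adjusted p up to 0.0778). *Socs3* and *Cish* gave −1.0 ± 0.31 (edgeR adjusted p = 0.0959) and −0.80 ± 0.30 (adjusted p = 0.154).

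Of the 17 other cytokine receptor genes examined, 8 fell and 0 rose with OVA NPs in the spleen (median log2 fold change −0.26), and 5 fell and 1 rose with soluble OVA (median −0.22). Over all genes tested, 6.35% fell and 8.60% rose with OVA NPs in the spleen, and 6.72% fell and 10.5% rose with soluble OVA. *Il5ra*, the IL-5 receptor chain, was 23.9 CPM with PBS, 14.3 CPM with soluble OVA (−0.74 ± 0.11, edgeR adjusted p = 0.000347), and 11.5 CPM with OVA NPs (−1.03 ± 0.16, adjusted p = 0.00149). *Il13ra1*, which pairs with IL-4Rα to bind IL-13, was 2.42, 1.06, and 1.21 CPM in the same order (−1.18 ± 0.34 and −1.01 ± 0.34, edgeR adjusted p = 0.0249 and 0.0456), and both calls were lost without PBS replicate 1 or 3, without soluble OVA replicate 3, and without OVA NP replicate 2 or 3, respectively (adjusted p between 0.0776 and 0.192). In PP with soluble OVA, 14 of the 17 fell and 0 rose (median −0.76), and 16 rose and 0 fell with OVA NPs against soluble OVA (median 0.82). The shares over all genes tested were 13.9% that fell with soluble OVA and 13.8% that rose with OVA NPs against soluble OVA. The receptors that fell most without overlap of the groups were *Il10ra* (136 to 43.1 CPM, −1.67 ± 0.19), *Il5ra* (7.18 to 2.85 CPM, −1.34 ± 0.26), and *Il6st*, the gp130 chain of the IL-6 receptor (39.4 to 15.8 CPM, −1.32 ± 0.15), with edgeR adjusted p between 0.000395 and 0.00535. The interaction for soluble OVA passed for 7 of the 17, all lower in PP, where 5.07% of all genes passed with a lower effect in PP.

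Of the 4 JAK genes, *Jak3*, which binds the common γ chain, rose in the spleen from 208 CPM to 267 CPM with soluble OVA (0.36 ± 0.06, edgeR adjusted p = 0.00135) and to 253 CPM with OVA NPs (0.29 ± 0.06, adjusted p = 0.00201), the latter at 0.25 and not called without PBS replicate 2. In PP it fell from 271 to 210 CPM with soluble OVA (−0.38 ± 0.07, edgeR adjusted p = 0.00393, but 0.0732 without soluble OVA replicate 2), and the interaction was −0.73 ± 0.09 (adjusted p = 0.000298). *Jak1*, *Jak2*, and *Tyk2* were not DEGs against PBS. *Stat4* fell with soluble OVA in spleen (20.5 to 15.3 CPM, −0.42 ± 0.09, edgeR adjusted p = 0.00542) and in PP (20.5 to 8.71 CPM, −1.24 ± 0.23, adjusted p = 0.00569), and *Stat2* fell in PP (105 to 86.6 CPM, −0.29 ± 0.06, adjusted p = 0.00808), the latter lost without PBS replicate 2 (−0.25) or soluble OVA replicate 2 or 3 (−0.23 each).

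Among 12 further inhibitors, *Socs2*, a STAT5-induced relative of *Cish*, rose in the spleen from 0.349 CPM with PBS to 1.86 CPM with soluble OVA (2.36 ± 0.49, edgeR adjusted p = 0.00397) and 1.47 CPM with OVA NPs (2.04 ± 0.48, adjusted p = 0.0077). It was the only one of the 12 to rise with OVA NPs in the spleen, was named for that contrast after its values were seen, and was at 9.71 CPM in PP with PBS. *Socs5* moved the other way, from 63.5 to 47.0 CPM with soluble OVA in spleen (−0.43 ± 0.07, edgeR adjusted p = 0.000438) and from 37.9 to 18.9 CPM in PP (−1.01 ± 0.12, adjusted p = 0.000452). The phosphatase gene *Ptpn2* rose with soluble OVA in both tissues (0.28 ± 0.07 in spleen, edgeR adjusted p = 0.00793, and 0.39 ± 0.08 in PP, adjusted p = 0.00477), and the spleen call was lost without soluble OVA replicate 1 (0.24).

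Genes known to respond to IL-4 in B cells were examined as a list of 11. Of 10 tested in the spleen, 6 rose and 0 fell with soluble OVA (median 0.85) and 5 rose and 1 fell with OVA NPs (median 0.635), the 1 being *Fcer2a*, which encodes CD23 (1130 to 855 CPM, −0.40 ± 0.07, edgeR adjusted p = 0.0017). Over all genes tested in the spleen, 10.5% rose with soluble OVA and 8.60% with OVA NPs. *Ighg1*, the IgG1 constant region, went from 32.2 CPM with PBS to 586 CPM with soluble OVA (4.19 ± 0.45, edgeR adjusted p = 0.0062) and 425 CPM with OVA NPs (3.73 ± 0.39, adjusted p = 0.0063). *Ighe*, the IgE constant region, went from 2.51 CPM to 12.1 and 12.0 CPM (2.28 ± 0.33 and 2.26 ± 0.21, edgeR adjusted p = 0.0019 and 1.53e-05). *Nfil3*, a transcription factor needed for IgE switching, went from 2.29 CPM to 12.0 and 7.14 CPM (2.39 ± 0.19 and 1.64 ± 0.20, edgeR adjusted p = 1.12e-06 and 6.64e-05). In PP with soluble OVA, 5 of 10 fell and 0 rose (median −0.62), among them *Ighg1* (883 to 178 CPM, −2.32 ± 0.13), *Fcer2a* (848 to 281 CPM, −1.61 ± 0.12), and *Nfil3* (16.8 to 6.50 CPM, −1.38 ± 0.15), with edgeR adjusted p between 8.22e-05 and 0.000254. The interaction for soluble OVA passed for 7 of 10, all lower in PP, as far as −6.51 ± 0.47 for *Ighg1* (edgeR adjusted p = 0.000107). Over all genes tested, 13.9% fell in PP with soluble OVA, and 5.07% passed this interaction with a lower effect in PP. The *Ighe* interaction was lost with all 18 libraries in 1 fit (edgeR adjusted p = 0.18). It was also lost when single libraries of either tissue were left out, such as spleen PBS replicate 1 (adjusted p = 0.069) or PP soluble OVA replicate 2 (adjusted p = 0.0611). *Il4i1*, an IL-4 induced oxidase, separated the treatments in the spleen, with a mean of 333 CPM after OVA NPs against 515 CPM after soluble OVA (−0.62 ± 0.08, edgeR adjusted p = 0.00609), a call lost without OVA NP replicate 2 (adjusted p = 0.163), where no gene was a DEG. Germinal center and plasma cell genes summed higher in the spleen with each treatment than with PBS, and germinal center genes also in PP with soluble OVA. Their part in the genes that respond to IL-4 was not tested.

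Of 7 genes known to respond to IL-21 or STAT3, 4 rose and 0 fell in the spleen with each treatment, where 10.5% of all genes tested rose with soluble OVA and 8.60% with OVA NPs. *Pim1*, a kinase gene, rose by 0.48 ± 0.08 on the log2 scale with soluble OVA and by 0.43 ± 0.07 with OVA NPs (edgeR adjusted p = 0.000725 and 0.000516). In PP with soluble OVA, 3 of the 7 rose and 2 fell, where 13.5% of all genes tested rose and 13.9% fell. Among the risers was *Pim1*, a call lost without any 1 PBS library or without soluble OVA replicate 1 or 2 (edgeR adjusted p between 0.0752 and 0.115). It was also lost with DESeq2 size factors (edgeR adjusted p = 0.0523) and with all 18 libraries in 1 fit (adjusted p = 0.169). *Bcl6*, the germinal center repressor, rose from 198 to 312 CPM (0.65 ± 0.08, edgeR adjusted p = 0.000589), while *Junb* fell from 832 to 313 CPM (−1.42 ± 0.23, adjusted p = 0.00762). *Bcl6* also belongs to the germinal center list above, and *Xbp1* and *Prdm1* to a plasma cell list that summed to 159–227 CPM with PBS, 309–375 CPM with soluble OVA, and 416–447 CPM with OVA NPs in the spleen. The part of these lists in the genes that respond to IL-21 or STAT3 was not tested.

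The cytokines themselves were scarcely present in these libraries. *Il9* had 0 counts in all 18 libraries, *Il4* had 0 to 2 counts per spleen library and 0 to 6 per PP library, and *Il21* had 0 counts in the spleen and 0 to 3 in PP. None of the 10 ligand genes passed the filter on low counts in a comparison within the spleen, so differences between the treatments there were not detectable at this depth.

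Over the 18 libraries, and among 13981 genes with a symbol, the genes most like each member by Pearson correlation of log2 CPM were *Dennd5a* (r = 0.990) and *P2ry10b* (0.988) for *Il2rg*, *Cd55os* (0.984) and *Nod1* (0.982) for *Il9r*, and *Lck* (0.983) and *Marcksl1* (0.974) for *Il21r*. They were *Iqsec1* (0.972) and *Trim3* (0.967) for *Stat6* and *Acap1* (0.950) and *Sh2d2a* (0.943) for *Il4ra*. The feedback genes gave *Etl4* (0.951) and *Socs2* (0.945) for *Cish*, *Nova1* (0.949) and *Tspyl5* (0.947) for *Socs3*, and *Nme2* (0.850) and *Nme1* (0.845) for *Socs1*, and *Stat3* gave *Ncoa3* (0.885) and *Ablim1* (0.873). Among the members, *Il2rg* and *Stat6* were the most alike (r = 0.933), and *Il21r* and *Il9r* ran opposite (r = −0.862). These are descriptions over libraries that share tissue and treatment groups.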

How the data were processed

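Bulk RNA-Seq was performed on negatively selected B cells from spleen and PPs, 3 libraries in each of 6 groups, after polyA selection. According to the study's methods and processing notes, the authors used Cutadapt 2.3 for trimming, STAR 2.7.8a for alignment on GRCm38, and RSEM 1.3.3 to estimate gene counts. The deposited values are expected counts, without normalization, and 0 of them were not whole. Strandedness of the counting is not given in the sources used here. Gene positions and exon lengths came from a GENCODE annotation of GRCm38.

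Each comparison was fitted on its own libraries with edgeR 4.0.16 in R 4.3.3, with filterByExpr (minimum count 10, minimum total 15), TMM, the robust quasi-likelihood F test, and Benjamini-Hochberg adjustment over all genes tested. Thresholds for DEGs followed the study's methods, an adjusted p below 0.05 with a log2 fold change beyond 0.25 in either direction. Interactions were fitted on 12 libraries and called on the adjusted p alone. Correlations used log2 CPM with a prior count of 2. DESeq2 1.42.0, which the authors used, its size factors, other count filters, 1 fit of all 18 libraries, calls on the adjusted p alone, the replicate number as a blocking factor, and the omission of single libraries were alternatives. In simulated counts where 200 genes were altered by a log2 fold change of 1, 196 were recovered with 8 false calls for OVA NPs against PBS in the spleen (14013 genes), 196 with 4 for PP against spleen in PBS mice (15174 genes), and 140 with 6 for the OVA NP interaction (15995 genes). The simulation gave all genes the same dispersion and altered only genes above a minimum mean count. Its recovery therefore need not hold for genes as low as *Cish* or for more variable libraries. Each of the 18 replicate pairs exceeded counting noise (4.72 to 41.3 per gene on a chi-square scale).

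The 9 genes, the pathway lists, and the marker lists were chosen with earlier results of these data known. All 9 genes are named in every comparison. For each pathway list up to 3 DEGs per comparison were eligible, taken by absolute log2 fold change from genes at 1 CPM or more on average whose groups were separate, and the 2 most correlated genes are given for each member. Some genes named by this rule are not reported here.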

Additional observations from a re-analysis of the deposited data

Results flagged for a closer look

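Differences between the tissues in a treatment effect, the PP effect minus the spleen effect on the log2 scale, were tested directly by the interaction in edgeR, and those past the threshold deserve a second look. With soluble OVA these were *Socs3* (−2.44), *Cish* (−1.40), *Socs1* (−1.09), *Il2rg* (−0.74), and *Il4ra* (−0.65). With OVA NPs they were *Socs1* (−1.09) and *Il9r* (0.65). The *Socs3* effect of soluble OVA was 1.89 in spleen and −0.56 in PP, and for *Il9r* the OVA NP effect was −0.46 in spleen and 0.17 in PP. With 3 libraries, no group was examined for outlying libraries.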

How the results depend on the processing

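Of 675 values of the 9 genes recomputed under other settings, 659 kept their direction and side of the threshold, 5 lost the call, 9 gained it, and 2 changed sign, both *Socs1* in PP with OVA NPs against PBS (−0.01, 0.01 without a count filter and 0 with at least 10 counts in every library). Of 702 values with 1 library left out, 646 kept both, 28 lost the call, 5 gained it, and 23 changed sign. For OVA NPs against PBS the sign changes were in spleen *Il4ra* (−0.13 to 0.04) and in PP *Il2rg* (−0.11 to 0.01), *Stat6* (−0.03 to 0.10), *Socs1* (−0.12 to 0.11), and *Socs3* (−0.28 to 0.18). For soluble OVA against PBS in PP they were *Il21r* (−0.11 to 0.08) and *Stat3* (−0.12 to 0.02), and for OVA NPs against soluble OVA they were spleen *Il4ra* (−0.05 to 0.13) and PP *Stat3* (−0.08 to 0.07). For PP against spleen they were *Il4ra* (−0.01 to 0.16) and *Socs1* (−0.15 to 0.06) in OVA NP mice and *Socs1* in soluble OVA mice (−0.16 to 0.09), and for the OVA NP interaction *Il4ra* (−0.17 to 0.01). None of these was a DEG. The number of DEGs among the 9 genes moved from 1 to 0 for OVA NPs against soluble OVA in spleen with all 18 libraries in 1 fit, and from 0 to 1 (*Il21r*) for OVA NPs against PBS in PP by DESeq2. Leaving out 1 library gave 0 to 1 for spleen OVA NPs against soluble OVA, 3 to 5 for PP soluble OVA against PBS (3 without soluble OVA replicate 3), and 0 to 3 for the OVA NP interaction, which also went from 2 to 1 with all 18 libraries in 1 fit. The causes were not tested.

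With a block for replicate number, the OVA NP interaction passed for 1 gene, *Il9r*, in place of 2, *Cish* in PP with OVA NPs against soluble OVA was not a DEG (adjusted p = 0.0904, edgeR), *Ighg1* and *Il13ra1* in spleen with OVA NPs against PBS were not either (adjusted p = 0.061 and 0.0654), and 97 of 99 values of the 9 genes kept their call and direction. The labels do not say what equal numbers share. Residuals of same-numbered libraries correlated at a mean r between −0.244 and 0.0910 over the 9 comparisons. In none of these 9 did every library correlate best with its own number. With 3 libraries a group, this cannot decide whether equal numbers come from the same mouse, so pairing stayed undetermined.

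Over all genes, DEGs for OVA NPs against soluble OVA in spleen numbered 33, but 113 by DESeq2, 230 without a count filter, 14 with all 18 libraries in 1 fit, and 0 to 40 with 1 library left out (7 without soluble OVA replicate 1, 10 without soluble OVA replicate 3, and 0 without OVA NP replicate 2). For OVA NPs against PBS in PP the 0 became 149 by DESeq2, 146 without a count filter, 24 with all 18 libraries in 1 fit, and 0 to 8 with 1 library left out (8 without PBS replicate 3 and 2 without OVA NP replicate 3). The 4697 for OVA NPs against soluble OVA in PP became 3119 with the block. Genes with an OVA NP interaction numbered 734, 1290 by DESeq2, 429 with the block, and 291 to 945 with 1 library left out (317, 341, and 484 without spleen PBS replicates 1, 2, and 3, 291 and 378 without spleen OVA NP replicates 1 and 2, 362 without PP PBS replicate 1, and 488 without PP OVA NP replicate 2). Those with a soluble OVA interaction numbered 1131, 1816 by DESeq2, and 655 to 1279 with 1 library left out (655 without spleen PBS replicate 1 and 700 without replicate 2). With 3 libraries a group, small differences such as those of *Stat3* were near the cutoff of 0.25. At these counts the ligands could not be tested in the spleen, and with at least 10 counts in every library *Socs2* could not be tested there. Of the pathway genes named, *Stat4*, *Pim1*, and *Il13ra1* were not DEGs in spleen with all 18 libraries in 1 fit (edgeR adjusted p between 0.132 and 0.312).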
